A study of Mus musculus with 6 samples.

Results

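The mitochondrial ribosomal protein genes were taken as the protein-coding rows of the deposited count table whose symbol begins with Mrpl or Mrps followed by a digit. The rule found 78 genes, 49 Mrpl and 29 Mrps, among 54532 genes in all. RNA had been sequenced from 6 libraries of 2208L, a mouse mammary tumour carried in Balb/c mice. In the CTC group, 3 libraries came from circulating tumour cells that had been propagated out of peripheral blood. In the PT group, 3 libraries came from tumour cells enriched from a dissociated primary tumour. No sample was treated, and the title of each PT library calls it matched with the CTC library of the same number. The series' design text speaks of matched mice, and the titles themselves name none. Age and genotype of the mice are not stated. All libraries are of the same tumour line, and the CTC cells alone were propagated, so that origin and propagation cannot be told apart.

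Mitochondria keep a ribosome of their own, which translates the few messages of the mitochondrial genome, all of them for membrane subunits of the respiratory chain and the ATP synthase. Its ribosomal RNAs are mitochondrially encoded, whereas all of its proteins are nuclear genes, translated in the cytosol and imported. Some of these proteins descend from bacterial ribosomal proteins and others exist in mitochondria only. The roles given below are those known from mammalian mitoribosome structures and biochemistry.

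Total counts ran from 23951093 to 27897320 in the CTC libraries and from 23845953 to 27371166 in the PT libraries, and a count of 3 was worth 0.108 to 0.126 CPM (counts per library, scaled to the same total). The epithelial markers Epcam, Krt8, Krt18, Cdh1 and Krt19 summed to 1971 to 4864 CPM in the CTC libraries and 3596 to 4367 CPM in the PT libraries, the highest value being that of CTC1 and the lowest that of CTC3. Pan-leukocyte markers summed to 0.43 to 2.58 CPM in CTC and 0.871 to 1.99 CPM in PT, with Cd52, Laptm5 and Rac2 at 0 in every library. Of 7 macrophage markers, Adgre1, C1qa and C1qb were at 0 throughout, and the sum was 11.5, 23.9 and 4.34 CPM in CTC1 to CTC3, against 4.06, 5.06 and 1.2 CPM in PT1 to PT3. Neutrophil markers summed to 1.38 to 26.4 CPM in CTC and 4.15 to 18.9 CPM in PT, with Ly6g, Csf3r and Retnlg at 0. Fibroblast markers summed to 8.91 to 164 CPM in CTC and 17.6 to 72.9 CPM in PT, with Lum at 0, endothelial markers to at most 1.88 CPM and erythroid markers to at most 0.667 CPM. In bulk RNA, fewer cells of a type and less RNA per cell cannot be told apart, and the part of these differences in the results below was not tested.

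All but 1 of the 78 genes had counts in every library. The exception was Mrpl53, a protein of the large subunit, which had 0 counts in all 6 libraries. A count of 0 allows up to 0.108 to 0.126 CPM, for counting error only. Its locus, chr6:83109040-83109939 on the plus strand of GRCm38, overlaps a tested protein-coding gene on the same strand, Gm42688, which had 89 counts over the 6 libraries. How reads in such an overlap were assigned is not stated, so the 0 counts do not show that Mrpl53 was not expressed. The other 77 genes passed the filter on low counts, their lowest count in any library being 372.

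Compared per length, as CPM per kilobase of the deposited gene length, the 77 genes ranged from 2.62 to 160 with a median of 22.5, against a median of 5.61 over all 13874 genes tested. The highest was Mrps21, a small-subunit protein with a bacterial homologue, at 78.8, 125 and 235 CPM per kb in CTC1 to CTC3 and 125, 190 and 206 CPM per kb in PT1 to PT3. These libraries overlapped, and the highest and the lowest value were both CTC libraries. Next came Mrpl12, the mitochondrial form of the bacterial stalk protein, at 107 ± 35.6 CPM per kb, then Mrpl28 at 99.8 ± 41.0 and Mrpl34 at 95.1 ± 35.9, both large-subunit proteins with bacterial homologues (SD, n = 6). The difference between neighbours among these 4 was smaller than the SD of the higher one.

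At the low end, Mrpl48, a protein of the central protuberance, averaged 2.62 ± 0.416 CPM per kb, Mrpl47 averaged 4.11 ± 0.445, Mrpl1, a protein of the stalk on the side where spent tRNA leaves, 4.93 ± 1.28, and Mrps35, a small-subunit protein without a bacterial counterpart, 5.99 ± 1.86 (SD, n = 6). By the deposited length, Mrpl48 lay below Mrpl47 in every library, its highest value being 3.13 CPM per kb and the lowest of Mrpl47 3.52. The next genes up overlapped. Levels per length depend on the length used. With the length of the principal annotated transcript in place of the deposited length, Mrps21 was again highest, at 265 CPM per kb. Mrpl48, Mrpl47 and Mrpl1 were again lowest on average, at 4.99, 5.40 and 6.06 CPM per kb. By this length, however, Mrpl48 was above Mrpl47 in PT1. The other top genes changed. Mrpl33 moved from rank 59 by the deposited length to rank 2, at 178 CPM per kb, and Mrpl30 from rank 33 to rank 3. Mrpl12, Mrpl28 and Mrpl34 then stood at ranks 4, 7 and 12. Mrps10 moved to rank 35, against rank 73 by the deposited length. By symbol, the median level was 25.8 CPM per kb for the 48 Mrpl genes tested and 19.2 CPM per kb for the 29 Mrps genes.

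**Figure D1:**
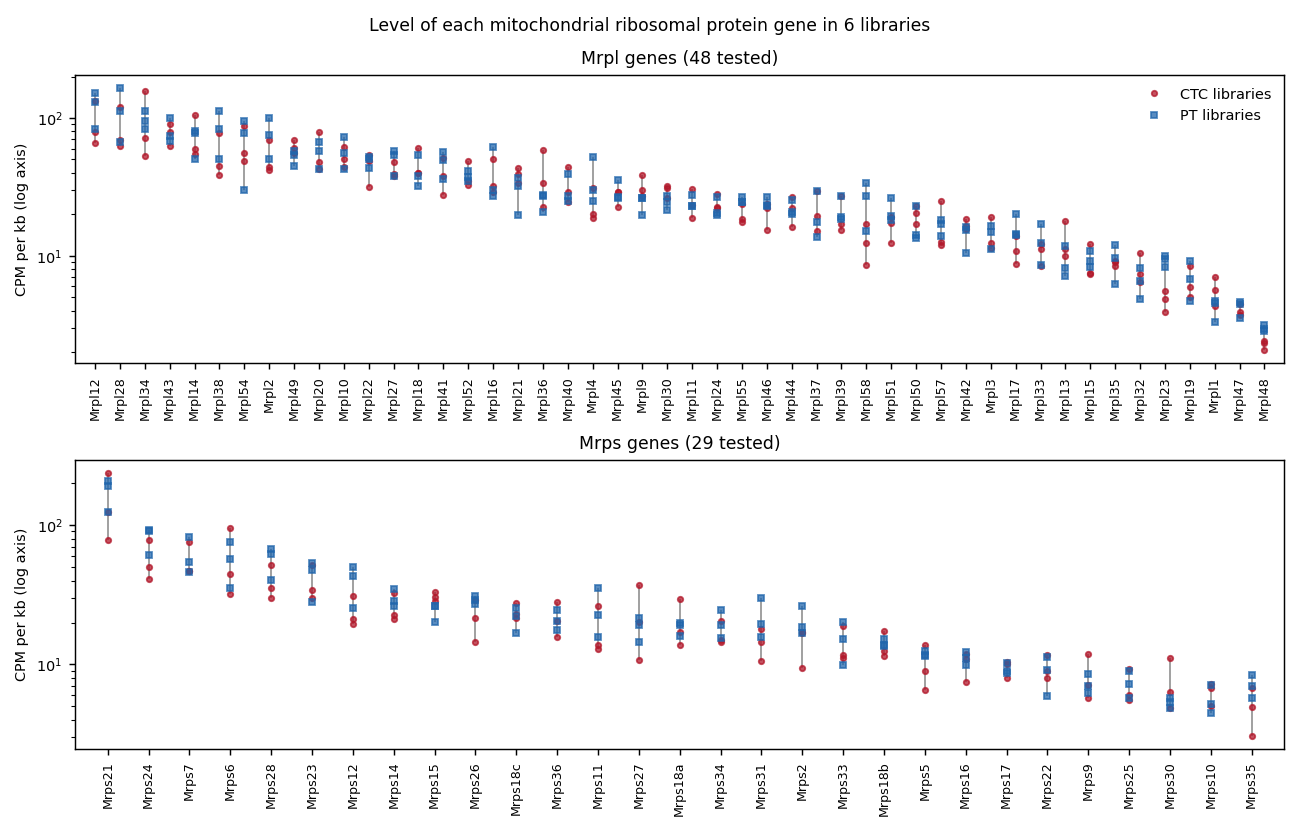
CPM per kilobase of the deposited gene length on a log axis for each Mrpl gene (upper panel) and Mrps gene (lower panel), ordered by mean, with 1 point per library (red circles CTC, blue squares PT) and a line from the lowest to the highest library. Mrps21 stands highest at 160 CPM per kb and Mrpl48 lowest at 2.62, and the CTC and PT points of most genes are interleaved.

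The comparison of CTC with PT asks whether the genes of the mitochondrial ribosome are expressed differently in propagated circulating tumour cells and in the matched primary tumour cells. None of the 77 genes was called by edgeR's quasi-likelihood test at an adjusted p of 0.05, the smallest adjusted p among them being 0.726. The same test called 0% of the 13874 genes tested, the smallest adjusted p over all genes being 0.611. At an unadjusted p of 0.05, 2 of the 77 genes were lower in CTC (Mrpl23 and Mrpl58; background 3.31%) and 0 were higher (background 3.32%), so that the share of these genes lay near that of all genes. The fit with the matched number as a block also called 0 of them (background 0%), and so did limma-voom. DESeq2 called 0 of the 77 although it called 0.459% of 13500 genes, and DESeq2 with that block called 0 with 1.9% of 13067 genes called.

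In direction, 47 of the 77 genes (61%) were lower in CTC and 30 were higher, beside 45.9% lower among all genes tested. The median log2 fold change, CTC over PT, was -0.08 for the 77 genes and 0.05 for all genes, and single genes ran from -1.0 for Mrpl58 to 0.61 for Mrpl36. By symbol, 29 of 48 Mrpl genes were lower with a median of -0.06, and 18 of 29 Mrps genes with a median of -0.12. The median rested on single libraries. It was 0.04 without CTC1, 0.0020 without CTC3 and -0.29 without CTC2, with 33, 38 and 61 of the 77 genes lower. Leaving out a PT library kept it between -0.11 and -0.05.

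The CTC libraries lay wholly below the PT libraries for 4 of the 77 genes, Mrpl23, Mrpl17, Mrpl48 and Mrpl55 (background 6.16%), and wholly above them for 2, Mrpl9 and Mrps15 (background 5.95%). Within matched pairs, 15 genes were lower in CTC in all 3 pairs (background 15.3%) and 10 higher in all 3 (background 15.4%). The share lower in all 3 pairs lay somewhat above its background, and the other shares lay below theirs. These differences were not tested.

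**Figure D2:**
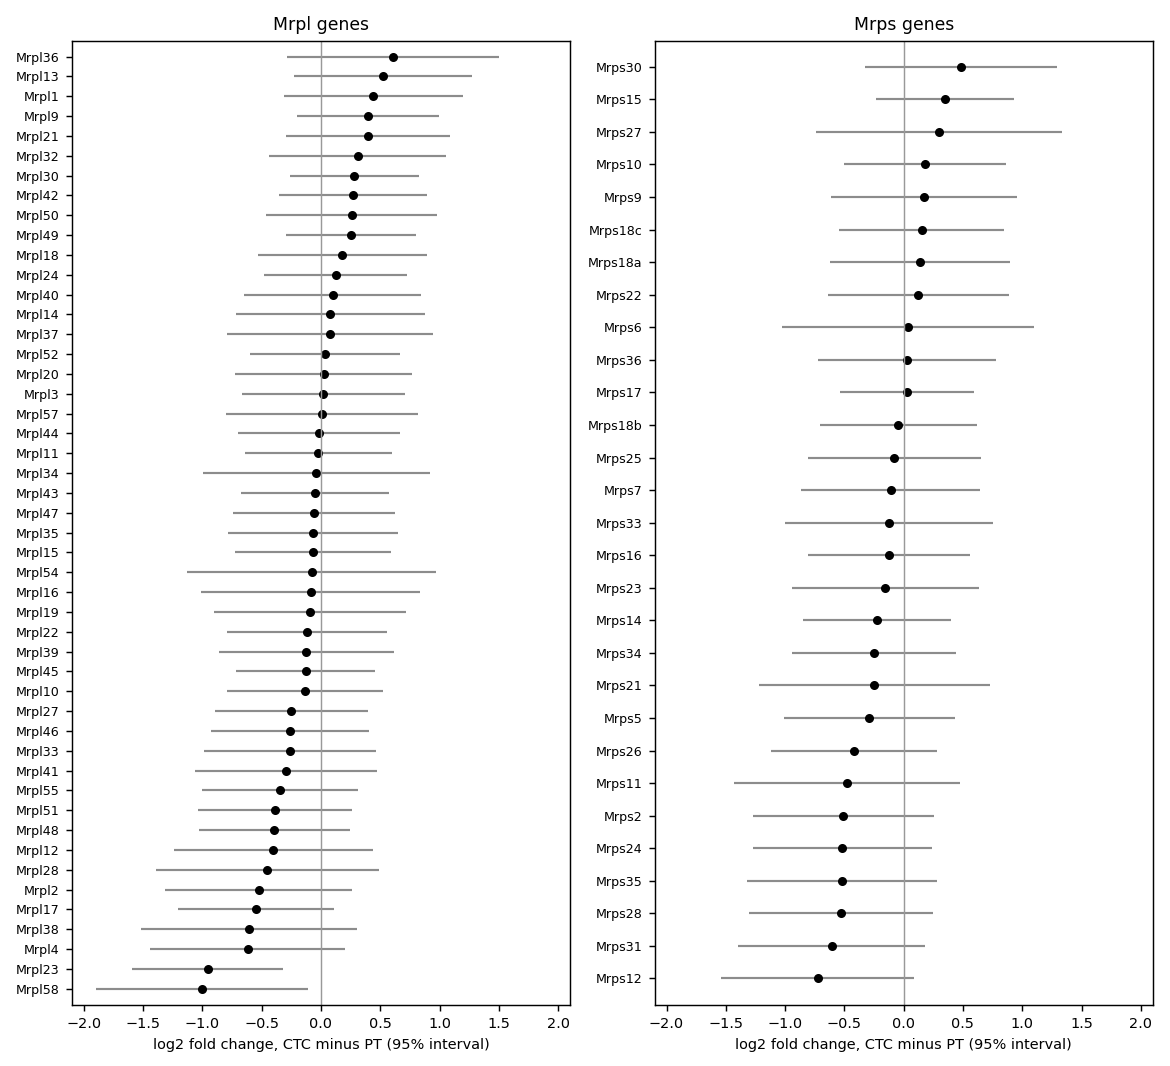
Log2 fold change of CTC over PT with its 95% interval from edgeR for each of the 77 genes, Mrpl genes on the left and Mrps genes on the right, sorted. The intervals of Mrpl23 and Mrpl58 lie below 0 before adjustment and those of the other 75 genes include 0.

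Among the genes lower in CTC, Mrpl23 had the smallest p. It encodes a protein at the mouth of the tunnel through which the new peptide leaves the large subunit, and lies at chr7:142532686-142540747 on the plus strand. Its level was 19.1, 27.1 and 23.5 CPM in CTC1 to CTC3, against 46.4, 48.5 and 40.5 CPM in PT1 to PT3. Every CTC library was below every PT library. The log2 fold change was -0.96 with a standard error of 0.27 (adjusted p = 0.726, edgeR; 0.117 by DESeq2 with the matched number as a block). A processed pseudogene of it, Mrpl23-ps1, had 15 to 28 counts in the CTC libraries and 35 to 63 counts in the PT libraries, so that reads shared between the copies are uncertain.

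Mrpl58, also known as Ict1, is a peptidyl-tRNA hydrolase built into the large subunit that frees peptides from stalled ribosomes. It had 28.5, 56.6 and 41.3 CPM in CTC1 to CTC3 and 112, 90.9 and 50.5 CPM in PT1 to PT3. CTC2 was above PT3, so the groups overlapped, and each CTC library was below its matched PT library. The log2 fold change was -1.0 with a standard error of 0.39 (adjusted p = 0.726, edgeR). With 3.92-fold between PT1 and CTC1, Mrpl58 varied most of all 77 genes across libraries. An antisense gene, Ict1os, overlaps it with 68 counts in all, few beside the 9465 counts of Mrpl58.

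Mrps12 encodes the protein of the decoding centre whose bacterial homologue carries streptomycin resistance mutations. Its level was 20.3, 32.1 and 22.1 CPM in the CTC libraries and 51.9, 44.6 and 26.6 CPM in the PT libraries, lower in CTC in each matched pair but overlapping between groups (log2 fold change -0.72, standard error 0.35, adjusted p = 0.726, edgeR). Mrpl17, a large-subunit protein with a bacterial homologue, had 65.9, 105 and 81.9 CPM in CTC and 152, 107 and 109.9 CPM in PT. Its groups did not overlap, but CTC2 and PT2 were 105 and 107 CPM (log2 fold change -0.55, standard error 0.28; -0.36 without PT1).

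Mrps31, a small-subunit protein found in mitochondria only, had 34.7, 47.5 and 59.0 CPM in CTC and 51.6, 64.2 and 99.3 CPM in PT, lower in CTC in each matched pair. Mrpl4, which lines the exit tunnel, had 49.5, 80.9 and 53.0 CPM in CTC and 137, 78.4 and 65.9 CPM in PT. Both overlapped between groups, at log2 fold changes of -0.61 and -0.62 with standard errors of 0.34 and 0.36. Without PT3 that of Mrps31 was -0.30, and without PT1 that of Mrpl4 was -0.23.

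The other genes without overlap had smaller differences. Mrpl48 had 16.9, 19.0 and 19.6 CPM in CTC and 24.1, 25.5 and 23.2 CPM in PT (log2 fold change -0.39, standard error 0.27). Mrpl55, a large-subunit protein without a bacterial homologue that is named here after its values were seen, had 17.9, 24.5 and 19.0 CPM in CTC and 25.3, 27.5 and 25.1 CPM in PT, so that CTC2 and PT3 nearly met (log2 fold change -0.34, standard error 0.28). Mrpl48 overlaps Rab6a on the other strand, a gene of 13807 counts in all beside the 3214 of Mrpl48, and has a processed pseudogene with 66 to 78 counts per library.

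The promoters of the 4 genes with the smallest p are shown because it is here that regulators of mitochondrial biogenesis, among them the factors Nrf1, Yy1 and the ETS factor GABP, are known to bind in genes of this class. Each sequence is 300 bases of GRCm38.p6 from RefSeq, 250 before the annotated start and 50 after it, in the direction of the gene. Capitals mark exact matches, on either strand, to the Nrf1 letters (GCGCA and GCGC with any base between them), CCGGAAG (ETS), AANATGGCG (Yy1) and CACGTG (E-box).
Mrpl23 (chr7:142532782-142533081, plus strand): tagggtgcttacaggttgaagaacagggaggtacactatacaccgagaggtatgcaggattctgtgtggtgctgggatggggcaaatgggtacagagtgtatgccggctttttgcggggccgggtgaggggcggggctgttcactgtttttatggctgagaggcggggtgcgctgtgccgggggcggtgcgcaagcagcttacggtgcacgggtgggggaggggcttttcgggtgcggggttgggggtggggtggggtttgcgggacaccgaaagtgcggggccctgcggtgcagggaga
Mrpl58 (chr11:115403502-115403801, plus strand): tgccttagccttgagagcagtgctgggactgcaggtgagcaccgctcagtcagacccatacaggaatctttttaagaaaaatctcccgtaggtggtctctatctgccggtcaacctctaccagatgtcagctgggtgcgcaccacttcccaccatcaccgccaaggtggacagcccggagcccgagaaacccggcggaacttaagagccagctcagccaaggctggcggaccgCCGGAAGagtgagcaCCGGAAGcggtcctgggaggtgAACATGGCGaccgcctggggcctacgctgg
Mrps12 (chr7:28741772-28742071, minus strand): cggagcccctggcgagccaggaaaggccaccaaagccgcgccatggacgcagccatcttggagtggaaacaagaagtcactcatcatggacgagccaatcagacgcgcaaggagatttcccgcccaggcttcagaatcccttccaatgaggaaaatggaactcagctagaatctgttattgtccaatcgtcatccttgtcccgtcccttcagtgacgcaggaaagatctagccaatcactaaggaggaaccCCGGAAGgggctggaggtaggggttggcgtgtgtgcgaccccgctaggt
Mrpl17 (chr7:105811038-105811337, minus strand): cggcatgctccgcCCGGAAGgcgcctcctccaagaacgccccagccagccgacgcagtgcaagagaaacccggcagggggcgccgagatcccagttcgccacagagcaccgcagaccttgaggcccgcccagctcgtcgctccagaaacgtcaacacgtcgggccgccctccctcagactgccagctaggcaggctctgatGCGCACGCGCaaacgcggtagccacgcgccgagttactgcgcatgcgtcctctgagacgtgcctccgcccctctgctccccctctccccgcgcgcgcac
The promoter of Mrpl58 holds 2 ETS matches and a Yy1 match around the start, that of Mrps12 an ETS match at the start, and that of Mrpl17 an ETS match and a Nrf1 match. None of these letters is in the Mrpl23 window. That window begins at base 142532782, inside the gene as deposited, which starts at base 142532686. Bases before the deposited start of Mrpl23 were therefore not searched.

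Of the 78 genes, 69 had a promoter in the RefSeq table. The ETS letters were in 26 of them (37.7%), against 9.93% of all 27025 genes in the table and 20.4% of the 9918 tested genes. Nrf1 letters were in 13 (18.8%, against 5.19% and 11.5%) and Yy1 letters in 11 (15.9%, against 2.76% and 6%). The E-box was in 5 (7.25%, against 8.09% and 11.7%), the letters TATAAA in 5 (7.25%, against 15.7% and 8.41%) and the letters GGGCGG in 34 (49.3%, against 38.2% and 69%). These shares describe letters in a window and are not binding sites. No promoter was given for Mrpl4, Mrpl13, Mrpl15, Mrpl19, Mrpl38, Mrpl54, Mrps28, Mrps34 and Mrps35.

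Of 9 regulators of mitochondrial biogenesis measured, those named here were picked by smallest p. No level is given here for Nrf1 or GABP, although their letters were counted above. Esrra, a nuclear receptor that acts with the coactivator Ppargc1a on mitochondrial genes, had 68.7, 96.6 and 90.2 CPM in CTC and 118, 168 and 126 CPM in PT, without overlap (log2 fold change -0.69, standard error 0.27, adjusted p = 0.726, edgeR). Ppargc1a itself was scarce, at 2.17, 2.58 and 8.21 CPM in CTC and 6.10, 21.9 and 12.4 CPM in PT, and overlapped. Yy1 had 124, 109 and 108 CPM in CTC and 77.6, 98.9 and 102 CPM in PT, without overlap and in the other direction (log2 fold change 0.30, standard error 0.24). Of the 9 regulators tested, 6 were lower in CTC, 3 were higher and 0 were called.

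Among the genes higher in CTC, Mrpl13, a large-subunit protein with a bacterial homologue, had the smallest p. It had 78.8, 141 and 88.3 CPM in CTC1 to CTC3, against 57.0, 93.2 and 64.6 CPM in PT1 to PT3. It was higher in CTC in each matched pair, but PT2 exceeded CTC1 and CTC3 (log2 fold change 0.52, standard error 0.32, adjusted p = 0.735, edgeR), and the fold change was 0.22 without CTC2. The coding gene Mtbp overlaps it on the other strand with 5898 counts, beside 13079 for Mrpl13. Their starts lie 340 bases apart, and without strand information reads in the shared stretch cannot be told apart. Mrpl36, another large-subunit protein with a bacterial homologue, had 39.2, 68.5 and 26.2 CPM in CTC and 24.3, 31.5 and 32.0 CPM in PT. CTC3 lay below PT2 and PT3, and the log2 fold change of 0.61 (standard error 0.39) was 0.15 without CTC2. It overlaps Ndufs6, a subunit of respiratory complex I, on the other strand.

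Mrpl9 and Mrps15, bacterial-type proteins of the large and the small subunit, were the genes with every CTC library above every PT library. Mrpl9 had 73.2, 81.5 and 104 CPM in CTC and 53.7, 70.9 and 71.2 CPM in PT, with 73.2 and 71.2 CPM as the nearest values (log2 fold change 0.40, standard error 0.26; 0.24 without CTC3). Mrps15 had 51.9, 56.2 and 48.2 CPM in CTC and 44.5, 34.4 and 44.2 CPM in PT (log2 fold change 0.35, standard error 0.25; 0.22 without PT2). For Mrps30, a protein that structures place in the large subunit despite its symbol, the CTC values were 42.3, 73.7 and 32.3 CPM and the PT values 32.5, 38.0 and 35.8 CPM. CTC1 and CTC2 were above the PT range, CTC2 by far, and CTC3 was just below it. The log2 fold change was 0.48 (standard error 0.35), and 0.063 without CTC2. Mrpl1 had 30.2, 18.5 and 24.4 CPM in CTC and 14.3, 19.4 and 20.2 CPM in PT, and here CTC2 was the lowest CTC library (log2 fold change 0.44, and 0.26 without CTC1).

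**Figure D3:**
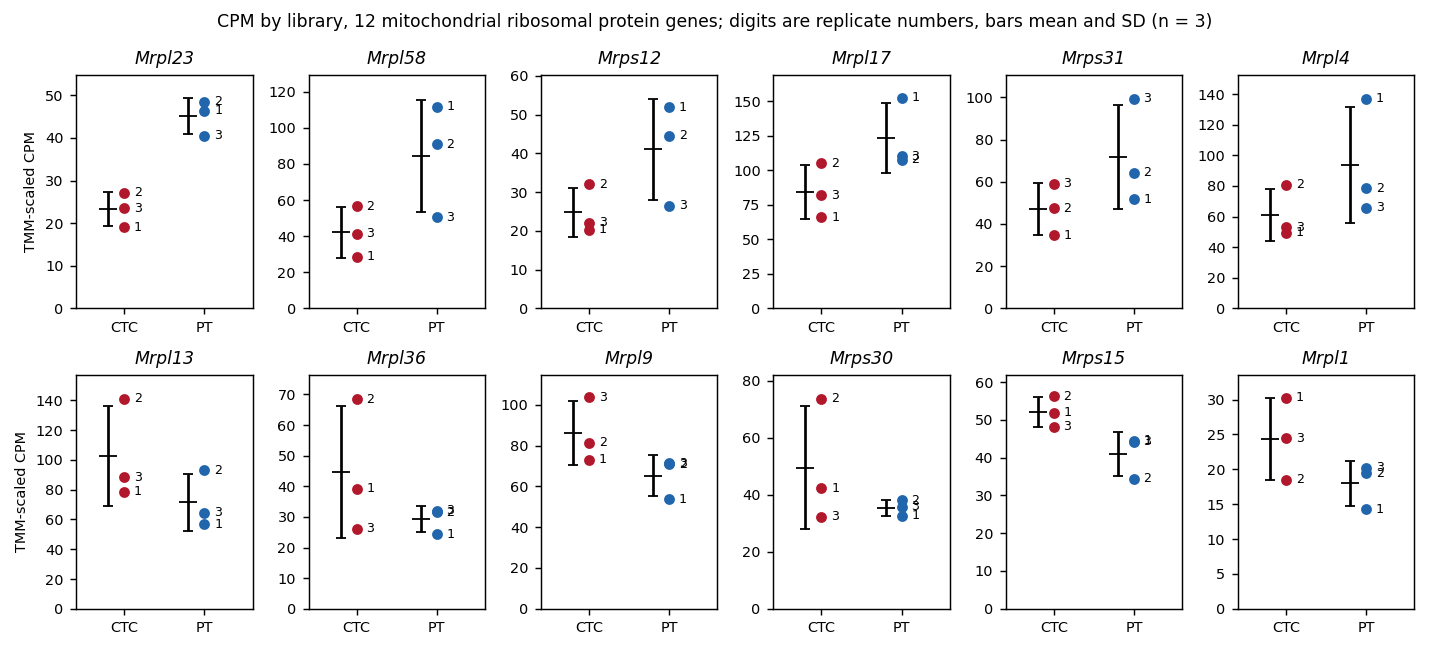
TMM-scaled CPM of the 6 genes with the smallest p among those lower in CTC (upper row) and the 6 among those higher (lower row), CTC on the left and PT on the right of each panel, points numbered by replicate, with bars for the mean and SD (n = 3). In the upper row CTC1 is the lowest CTC library in 6 of 6 panels, and CTC and PT points are fully apart for Mrpl23, Mrpl17, Mrpl9 and Mrps15.

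Ordered by place in the ribosome, the stalk proteins Mrpl10, Mrpl11 and Mrpl12, to which translation factors bind, had log2 fold changes of -0.13, -0.02 and -0.40. Mrpl12, which also associates with the mitochondrial RNA polymerase, had 120.2, 204 and 100.2 CPM in CTC and 231, 202 and 128 CPM in PT. CTC2 matched PT2, and the other CTC libraries lay below every PT library. The decoding and mRNA entry proteins Mrps12, Mrps24 and Mrps5 were lower in 3 of 3, with a median log2 fold change of -0.52. Mrps24 shares its strand and part of its locus with Urgcp, a gene of 10186 counts in all, beside 15062 for Mrps24.

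Of 6 proteins at the peptide exit and its membrane contact, 4 were lower in CTC, with a median of -0.07. Mrpl45, which tethers the ribosome to the inner membrane, averaged 69.8 ± 9.75 CPM in CTC libraries and 76.4 ± 13.2 CPM in PT libraries (SD, n = 3 each), and for Mrpl44 these averages were 35.7 ± 8.77 CPM in CTC libraries and 36.2 ± 4.79 CPM in PT libraries. Those differences were smaller than the spread in either group. Of 5 proteins of the central protuberance, a part of the large subunit, 3 were lower, with a median of -0.26. Genes with a bacterial homologue were lower in 27 of 46 (median -0.06) and those found in mitochondria only in 18 of 28 (median -0.10). All of these groups had 0 called genes.

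The Mrps18 paralogues share a bacterial ancestor but sit in different places, Mrps18a in the large subunit and Mrps18b and Mrps18c in the small subunit. Mrps18a averaged 74.4 ± 30.5 CPM in CTC libraries and 67.7 ± 7.27 CPM in PT libraries (SD, n = 3 each), with CTC2 at 109 CPM above all others. Mrps18b averaged 28.8 ± 6.50 CPM in CTC libraries and 29.7 ± 1.94 CPM in PT libraries, and Mrps18c 25.8 ± 3.30 CPM in CTC libraries and 23.2 ± 4.81 CPM in PT libraries. None of the 3 differed by more than the spread within CTC. Mrps36, once counted as ribosomal and now known as a subunit of the 2-oxoglutarate dehydrogenase complex, had 26.0, 35.6 and 20.2 CPM in CTC and 26.3, 31.5 and 22.4 CPM in PT. The values of the groups were interleaved, and replicate 2 had the highest and replicate 3 the lowest value in both.

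The level of the whole set differed between libraries of 1 group. Summed over the 77 genes, the level was 3820, 5804 and 4121 CPM in CTC1 to CTC3, against 5297, 5161 and 4609 CPM in PT1 to PT3, with means of 4582 ± 1069 CPM in CTC libraries and 5023 ± 364 CPM in PT libraries (SD, n = 3 each). CTC2 was the highest library of all and CTC1 and CTC3 the lowest, so the difference between groups was smaller than the spread within CTC. In shares of all counts this was 0.386%, 0.568% and 0.440% in CTC and 0.505%, 0.504% and 0.465% in PT. CTC2 was the highest library for 33 of the 77 genes (42.9%), against 13.7% of all genes tested, and the lowest for 0. CTC1 was the lowest for 30 (39%), against 22.9% of all genes, and the highest for 3.

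Relative to each gene's mean over 6 libraries on the log2 scale, the median of the 77 genes was -0.28, 0.29 and -0.21 in CTC1 to CTC3, against 0.04, 0.10 and -0.06 in PT1 to PT3. The medians of all genes tested stayed between -0.03 and 0.04. For the Mrpl genes these medians were -0.26, 0.29 and -0.16 in CTC1 to CTC3 and -0.06, 0.11 and -0.06 in PT1 to PT3. For the Mrps genes they were -0.33, 0.26 and -0.23 in CTC1 to CTC3 and 0.14, 0.08 and -0.06 in PT1 to PT3. The symbols had the same sign in every library but PT1, which was the lowest library for 15 of 48 Mrpl genes and 2 of 29 Mrps genes. The ratio of summed CPM per kb, Mrpl over Mrps, was 2.26, 2.22 and 1.81 in the CTC libraries and 2.02, 1.98 and 1.90 in the PT libraries, and the groups overlapped. The epithelial and macrophage sums given above differed between the same libraries, the first being highest in CTC1 and the second in CTC2.

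Gene by gene, the within-group SD of log2 CPM had a median of 0.37 for the 77 genes, 0.48 for all genes tested and 0.41 for the 9413 genes whose mean log2 CPM exceeded 3. The highest library was under 2-fold of the lowest for 39 of 77 genes, and over 3-fold for 3, Mrpl58, Mrps27 and Mrpl54. Mrps27, a small-subunit protein found in mitochondria only, had 42.5, 77.6 and 22.4 CPM in CTC1 to CTC3 and 45.1, 40.5 and 30.5 CPM in PT1 to PT3, its extremes both being CTC libraries. The steadiest were Mrps17, with 1.31-fold between its highest and lowest library, and Mrpl47, also with 1.31-fold. These 5 genes were picked for their spread.

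Other genes of mitochondrial gene expression were counted in the same fit. The 5 mitoribosomal proteins without an Mrp symbol, Dap3, Ptcd3, Chchd1, Aurkaip1 and Gadd45gip1, were lower in 3 of 5 with a median log2 fold change of -0.21. Their median over libraries was -0.30, 0.35 and -0.29 in CTC1 to CTC3 and 0.14, 0.18 and -0.14 in PT1 to PT3, with CTC2 highest as for the 77 genes. Mitoribosome assembly and rRNA modification factors were lower in 12 of 23 (median -0.06). Among them the ribosome assembly factor Rbfa had 26.2, 40.2 and 31.1 CPM in CTC and 43.1, 52.6 and 46.4 CPM in PT, without overlap. Mterf3, which takes part in mitochondrial ribosome biogenesis, had 26.8, 16.0 and 15.6 CPM in CTC and 9.93, 12.6 and 13.7 CPM in PT, also without overlap but higher in CTC.

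Mitochondrial translation factors were lower in 6 of 13 (median 0.06), and the elongation factor Tufm and its exchange factor Tsfm had log2 fold changes of -0.56 and 0.87 with standard errors of 0.33 and 0.47. The aminoacyl-tRNA synthetases that serve mitochondria were lower in 13 of 19 (median -0.22). Cars2, which charges cysteine tRNA, had 21.7, 40.9 and 49.4 CPM in CTC and 91.7, 67.1 and 94.2 CPM in PT, without overlap (log2 fold change -1.18, standard error 0.35, adjusted p = 0.726, edgeR). Genes of mitochondrial DNA transcription and maintenance were lower in 3 of 8 (median 0.20) and import genes in 3 of 11 (median 0.15), of which the import channel subunit Timm50 had 86.6, 157 and 91.6 CPM in CTC and 317, 201 and 126 CPM in PT, with CTC2 above PT3. None of these lists had a called gene.

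Cytosolic ribosomal protein genes were lower in CTC in 60 of 78 (76.9%; median log2 fold change -0.24) and nuclear genes of the respiratory chain in 59 of 76 (77.6%; median -0.26), each with 0 called genes. Their medians over libraries had the same low point, -0.46 and -0.42 in CTC1. CTC2 was at 0.22 and 0.16 and PT2 was higher still, at 0.43 and 0.29. The 13 proteins encoded by the mitochondrial genome itself, which this ribosome translates, summed to 17136, 11581 and 23097 CPM in CTC1 to CTC3, against 11216, 14573 and 20504 CPM in PT1 to PT3. They were lowest in PT1 and CTC2, where the sum over the 77 genes was among the highest, and highest in CTC3. All of these sums share the libraries and their totals, and no relation across 6 libraries was tested.

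**Figure D4:**
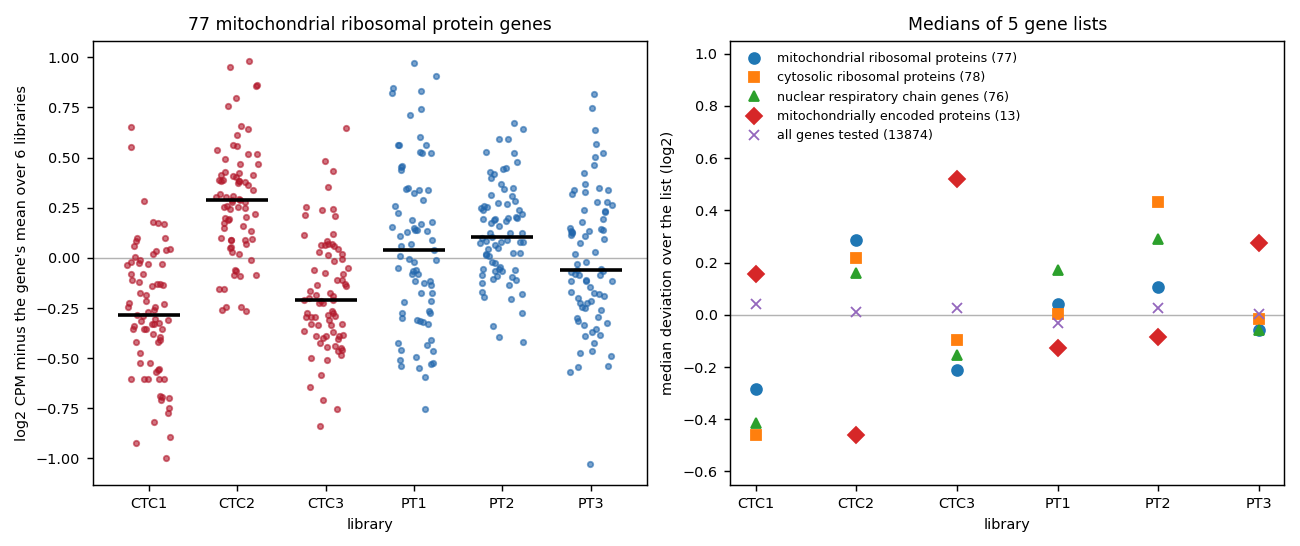
Left, log2 CPM of each of the 77 genes minus its own mean over the 6 libraries, 1 point per gene, with bars for the median (-0.28, 0.29, -0.21 in CTC1 to CTC3 and 0.04, 0.10, -0.06 in PT1 to PT3). Right, the same median for the 77 genes, cytosolic ribosomal protein genes, nuclear respiratory chain genes, mitochondrially encoded proteins and all genes tested, where the nuclear lists are lowest in CTC1 and the mitochondrially encoded proteins are lowest in CTC2.

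The genes are spread over 17 chromosomes, and on several of these they shared a direction with the other genes there. All 6 on chromosome 7 (Mrpl17, Mrpl23, Mrpl46, Mrpl48, Mrps11 and Mrps12) had negative fold changes, at a median log2 value of -0.51, and CTC1 was the lowest library for all 6. Of the other 1054 genes tested on chromosome 7, 74.2% were lower, with a median of -0.37. All 11 on chromosome 11 were lower (median -0.25), where 57.5% of the other genes were lower, and all 6 on chromosome 6 (median -0.11), where 68.9% were. All 5 on chromosome 13 (Mrpl32, Mrpl36, Mrps27, Mrps30 and Mrps36) were higher (median 0.31), where 34.2% of the other genes were lower and their median was 0.27, and CTC2 was the highest library for all 5. The 4 on chromosome 4 were all higher too, where 34.6% of the other genes were lower. This did not hold on every chromosome. Both on chromosome 8 were lower (median -0.32), where 42.2% of the other genes were lower and their median was 0.11, and 3 of 5 on chromosome 3 were lower, where 31.7% of the others were. On chromosomes 1, 3, 8 and 19 the median of the set and that of the other genes had opposite signs. These chromosomes were picked for their counts.

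Each gene was set against its 20 nearest tested neighbours outside the set, 10 on each side. Near chromosome ends fewer were available, 10 for Mrpl15, 11 for Mrpl21 and 17 for Mrps28. A gene had the same sign of fold change as the median of its neighbours in 56 of 77 cases. Neither this count nor the correlations below were computed for genes outside the set, so they are not shown to be particular to it. Pearson's r between the fold change of the gene and the neighbours' median was 0.667 over the 77 genes, given as a description, since all points share the 6 libraries and some share neighbours. Mrps12, at -0.72, lay among neighbours with a median of -0.69, of which 18 of 20 were lower. Mrpl36, at 0.61, lay among neighbours with a median of 0.53, and Mrpl58, at -1.0, among neighbours with a median of -0.30, and so farther from them. Over the deviations of genes in each library, 462 points in all, r was 0.529.

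**Figure D5:**
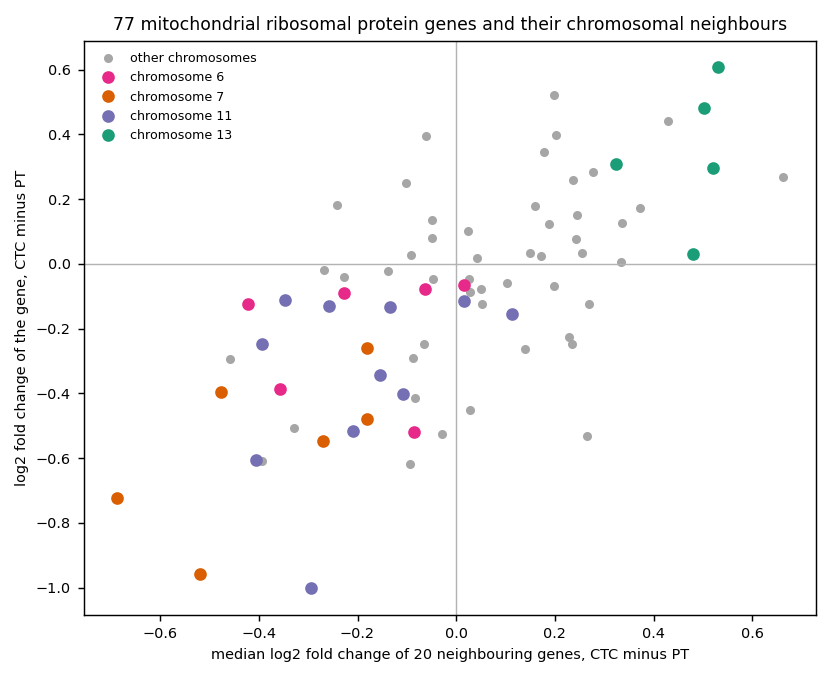
Log2 fold change of CTC over PT for each of the 77 genes against the median of its tested neighbours on the chromosome, 20 or, near chromosome ends, fewer. There is 1 point per gene, coloured for chromosomes 6, 7, 11 and 13. Genes of chromosome 7 sit at the lower left and those of chromosome 13 at the upper right, and 56 of 77 points lie in the quadrants of equal sign.

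Many of these genes start back to back with another gene. A tested divergent partner with its start within 1000 bases was found for 31, in 30 pairs. For 22 of the 31 the partner had the same sign of fold change, beside 56 of 77 for the chromosomal neighbours above. These counts cover different sets of genes, and a partner can itself be among the neighbours, so they are not a like comparison. Mrps12 and Sars2, the mitochondrial serine tRNA synthetase, start 172 bases apart, and both were lower in CTC. Sars2 had 16.8, 21.8 and 16.0 CPM in CTC and 34.9, 35.7 and 22.9 CPM in PT, without overlap (log2 fold change -0.78, standard error 0.32, adjusted p = 0.726, edgeR). Mrps11 and Mrpl46, one protein of each subunit, are each other's partner, with starts 412 bases apart and log2 fold changes of -0.48 and -0.26. Mrpl36 and Ndufs6 start 29 bases apart, and there the fold changes differed more, at 0.61 and 0.04. In all, 27 of the 78 genes overlap another tested gene, 5 of them on the same strand, and without those that were tested, 31 of 51 genes were lower in CTC, at a median of -0.09.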

How the data were processed

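RNA from 3 CTC and 3 PT libraries of the 2208L mouse tumour was purified with a column kit and 100 ng entered an mRNA library kit, per the labels' protocols. The authors deposited raw read counts per Ensembl gene and, beside them, gene lengths in bases. HISAT2 and the builds GRCm38 and mm10 are named in the submitters' processing notes. The sources used here give neither the aligner's version nor the read counter, annotation release or strand setting. Coordinates are those of the deposited table, and 73 of the 78 genes have the same start and end in GENCODE M21. No column was left unmapped, and all rows named a gene.

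The quasi-likelihood test of edgeR 4.0.16 (R 4.3.3) was fitted to the whole table with TMM scaling and the default expression filter, which left 13874 genes. Benjamini-Hochberg adjustment ran over all of them, with 0.05 as the threshold. CPM are TMM-scaled, and log2 CPM used a prior count of 2. Standard errors derive from the test's F statistic. Alternatives used limma 3.58.1 and DESeq2 1.42.0, other scalings and filters, corrections for gene length and GC content, and left-out libraries. The fit was tested on simulated data with a fixed spread that was not estimated from these libraries, so detection at their real spread was not tested.

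Per the labels, each PT title is matched with the CTC library of its number, and the series' design text speaks of matched mice. The main edgeR fit compared the groups without using these pairs, so its p, standard errors and intervals are unpaired. The matched number entered as a block in alternatives only, and directions within pairs were counted without a test. Deviations from group means correlated at -0.02, 0.16 and 0.30 over all genes for pairs 1 to 3. Libraries differed by far more than sampling noise (chi-square per degree of freedom at least 99.7 in 15 pairs), so each counted as 1 sample.

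The members and lists were chosen with earlier results of these data known. Genes named are the 6 lowest p in each direction, the 4 highest and lowest per length, those failing the filter, 12 chosen for their roles, and up to 3 of each other list by p.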

Additional observations from a re-analysis of the deposited data

How the results depend on the processing

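No mitochondrial ribosomal protein gene was called in any of the 24 alternatives run, and 15 of the 27 named genes kept their sign in all of them, Mrpl23 between -1.09 and -0.79 and Mrpl58 between -1.28 and -0.51. With the replicate block for the matched number, 50 genes had negative fold changes (median log2 value -0.07), and the block changed no call in edgeR. Over all genes, the main edgeR fit called 0 and had 919 at an unadjusted p of 0.05. DESeq2 called 62, DESeq2 with the replicate block 248, and edgeR without a filter on low counts 199. The cause was not tested. Leaving out libraries or matched pairs gave medians from -0.29 to 0.05 and between 33 and 61 genes lower, CTC1, CTC3 and CTC2 being the libraries whose omission shifted them most. Without genes that overlap another tested gene, 31 of 51 were lower, since fewer genes were counted.

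Other scalings and corrections turned the sign of several named genes. Under the gene length correction Mrpl34 was 0.032, Mrpl11 0.016, Mrpl44 0.040 and Mrps18b 0.013, and with the replicate block added Mrpl44 was 0.039 and Mrps18b 0.00041. Upper-quartile scaling put Mrps36 at -0.0049, and DESeq2 with the replicate block at -0.023. The alternatives with GC content, DESeq2 with the block and overlapping genes were added after seeing the data. GC correction gave 0.14 for Mrpl34, 0.0021 for Mrps18b, -0.089 for Mrps18c and -0.14 for Mrps36. GC and length correction gave 0.21 for Mrpl34, 0.029 for Mrpl10, 0.013 for Mrpl44, 0.033 for Mrps18b, -0.012 for Mrps18c and -0.093 for Mrps36. With the replicate block added to both corrections, Mrpl34 was 0.15, Mrpl10 0.042, Mrpl44 0.012, Mrps18b 0.025 and Mrps36 -0.11. The cause was not tested.

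When libraries or matched pairs were left out, sign changes were seen in Mrpl10 (-0.31 to 0.21), Mrpl11 (-0.23 to 0.13), Mrpl28 (-0.84 to 0.047), Mrpl34 (-0.63 to 0.24), Mrpl44 (-0.27 to 0.16), Mrpl45 (-0.27 to 0.15), Mrpl47 (-0.16 to 0.022), Mrps18a (-0.26 to 0.35), Mrps18b (-0.29 to 0.089), Mrps18c (-0.0043 to 0.34), Mrps21 (-0.77 to 0.050) and Mrps36 (-0.22 to 0.20).

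With 3 libraries per group, the standard errors of the log2 fold changes of the 27 named genes of the set were 0.25 to 0.42. The groups of Mrpl23 did not overlap, and its log2 fold change of -0.96 (standard error 0.27) still had an adjusted p of 0.726 (edgeR). How large a difference had to be to be called, given the spread between libraries, was not tested. Counts of at least 372 per library keep counting error small beside that spread, and intervals from counts cover counting error only.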
